A study of Mus musculus with 15 samples.

Results

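Glucocorticoid-responsive genes were followed in retinas of C57BL/6 mice after optic nerve injury and needling. The set held 10 genes of the 54532 in the count table, namely Fkbp5, Tsc22d3, Sgk1, Zbtb16, Nr3c1, Pdk4, Ddit4, Etnppl, Fam107a and Mal. They were picked by symbol as glucocorticoid targets plus the receptor gene Nr3c1, and Etnppl and Fam107a were taken in because they were higher in the needled groups. The 9 members other than Pdk4 passed the filter on low counts and were tested among 19259 genes.

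The series had 15 poly(A) RNA-seq libraries, 3 in each of 5 groups of wild type mice, aged 5 weeks by the labels. WT was the naive control and ONC had both optic nerves crushed, with retinas taken 2 days later. ONC-F, ONC-J and ONC-S had the same crush plus needling at the acupoints GB20, BL1 and GV16, the last being the sham point. WT and ONC are called un-needled here, and the other 3 groups needled. The crush was done under ketamine and xylazine, and needling was given 3 times at each of these points. Mice were anesthetized again before needling at GB20 or BL1, where treatments were a day apart. The methods do not say whether anesthesia preceded each treatment, whether these details hold for GV16 or whether ONC mice were anesthetized again, so needling, handling and anesthesia cannot be told apart. Whether a library holds the retina of 1 mouse or of several is not stated, and p-values then measure only the spread between these libraries.

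Glucocorticoids such as corticosterone, the main one in mice, are released from the adrenal gland under stress. They enter cells and bind the glucocorticoid receptor, the product of Nr3c1, which is held ready by Hsp90 and its co-chaperones. The bound receptor moves to the nucleus and pairs on DNA at a palindrome of hexamers, the glucocorticoid response element. In the retina the receptor is known to be prominent in Müller glia and the inner retina.

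The 8 members with start-site windows in RefSeq (GRCm38.p6, 250 bases before to 50 after a start) had 18 windows, which were searched for the hexamer AGAACA and, for the other strand, TGTTCT. At least 1 window with a hexamer was found for 3 of the 8 members, Sgk1, Fam107a and Tsc22d3, and for 21.3% of the 27025 genes searched, with other windows of these 3 members holding none. A gene with more windows has more room for a match. The members had 18 windows for 8 genes and the whole search 32851 for 27025, so the shares by gene are not alike. By window it was 6 of 18, beside 19% of all 32851. Of the 6, 2 are Fam107a windows of nearly the same bases that hold the same pair of hexamers. The palindrome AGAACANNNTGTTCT, whose ends are these same hexamers, occurred in 1 member window, that of an Sgk1 start, and in 3 windows (0.00913%) of all. A match describes the letters of these windows, and binding was not measured. Shown are that Sgk1 window (chr10:21993640-21993939, plus strand), the Fam107a window with 2 hexamers (chr14:8309730-8310029, minus strand), and the Fkbp5 (chr17:28486100-28486399, minus strand) and Etnppl (chr3:130617198-130617497, plus strand) windows, which had none and belong to members with clear differences below. Capitals mark the hexamers.
Sgk1: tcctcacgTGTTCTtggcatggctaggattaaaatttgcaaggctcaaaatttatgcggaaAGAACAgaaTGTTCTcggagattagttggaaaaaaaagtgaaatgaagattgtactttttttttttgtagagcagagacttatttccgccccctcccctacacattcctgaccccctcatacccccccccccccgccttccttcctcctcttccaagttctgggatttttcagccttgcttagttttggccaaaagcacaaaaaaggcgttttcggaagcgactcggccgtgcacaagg
Fam107a: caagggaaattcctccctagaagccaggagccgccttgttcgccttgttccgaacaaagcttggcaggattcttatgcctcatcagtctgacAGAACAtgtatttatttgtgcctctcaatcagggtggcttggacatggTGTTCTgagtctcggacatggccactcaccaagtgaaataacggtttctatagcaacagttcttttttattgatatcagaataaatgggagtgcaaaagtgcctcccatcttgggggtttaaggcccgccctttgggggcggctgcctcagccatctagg
Fkbp5: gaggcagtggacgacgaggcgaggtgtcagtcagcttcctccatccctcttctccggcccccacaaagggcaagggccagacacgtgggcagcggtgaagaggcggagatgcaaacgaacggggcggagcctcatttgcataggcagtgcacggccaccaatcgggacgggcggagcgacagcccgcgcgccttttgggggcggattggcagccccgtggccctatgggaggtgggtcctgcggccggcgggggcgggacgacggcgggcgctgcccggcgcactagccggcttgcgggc
Etnppl: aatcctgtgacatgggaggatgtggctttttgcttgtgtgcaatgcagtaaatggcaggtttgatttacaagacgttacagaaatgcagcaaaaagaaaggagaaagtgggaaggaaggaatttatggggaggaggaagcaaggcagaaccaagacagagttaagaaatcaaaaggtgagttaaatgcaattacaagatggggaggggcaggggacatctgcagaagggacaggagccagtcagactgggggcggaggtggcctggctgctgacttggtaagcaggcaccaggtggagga
In the Sgk1 window the hexamers began at -242, -189 and -180 from the start site, and the last pair formed the palindrome. Those of Fam107a began at -158 and -110.

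Library depth ran from 14482435 to 26112762 counts, and levels below are CPM, each gene's share of the library scaled to a common TMM library size. The 7 rod photoreceptor markers, which define retina in bulk RNA, summed to 43970.4 to 54164 CPM per library. ONC-S stood apart from the other injured groups, with 2791 of the 19259 genes (14.5%) called against ONC at an adjusted p under 0.05 by the edgeR quasi-likelihood test, compared with 1 gene in ONC-F and 24 in ONC-J. The ONC-S count became 1724 without ONC replicate 2, 1803 without ONC replicate 3 and 1722 without ONC-S replicate 2. Leaving out each library in turn gave 0 to 10 genes in ONC-F (0 without ONC replicates 2 or 3, ONC-F replicates 1 or 3 or WT replicate 2, 10 without WT replicate 3) and 2 to 61 in ONC-J (2 without ONC replicate 3, 61 without ONC-J replicate 3). WT replicate 1 was rich in lens transcripts, at 2394 summed CPM against at most 94.4 in any other library, and ONC replicate 2 in reactive gliosis transcripts, at 853 summed CPM against 271 and 363 in the other ONC libraries. Comparisons with ONC use the same 3 ONC libraries for all needled groups. The GEO sample numbers of ONC-S lie apart from the run of the other groups. Whether its libraries were made or sequenced with the others is not stated. A batch and GV16 needling therefore cannot be told apart in any comparison of ONC-S with another group.

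Compared per length, in the authors' FPKM, Ddit4 was the most abundant member in the un-needled retina, at a mean of 92.8 FPKM, followed by Sgk1 at 62.1, Nr3c1 at 12.1 and Tsc22d3 at 7.08. Fam107a (3.05 FPKM), Fkbp5 (2.38) and Etnppl (2.13) formed a middle tier, and the FPKM ranges of these 3 genes over the libraries overlapped. Mal (0.996 FPKM), Zbtb16 (0.786) and Pdk4 (0.102) were lowest. Etnppl, Fam107a, Fkbp5, Mal and Zbtb16, the members whose log2 fold changes against ONC were largest, all lay below Tsc22d3 in this order, while Sgk1, with a smaller difference in ONC-S, lay near its top.

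**Figure D1:**
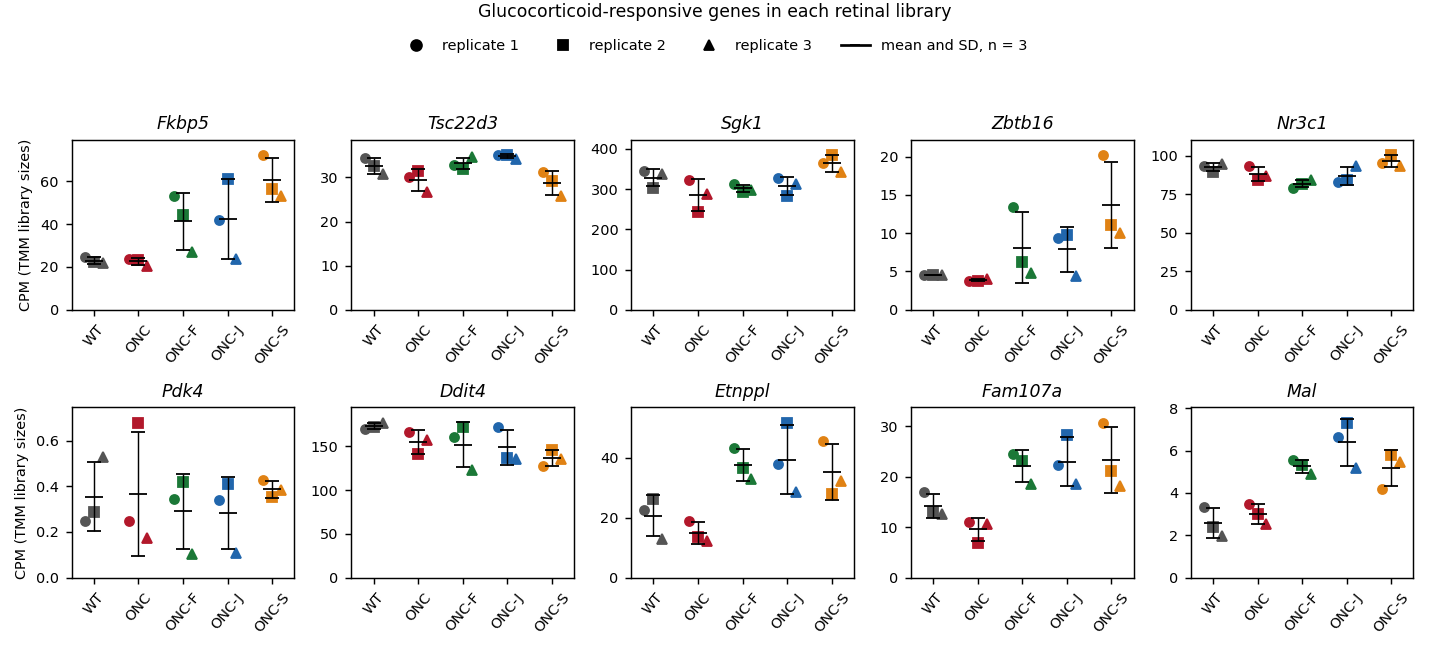
CPM of the 10 members in each of the 15 libraries (vertical axis from 0, 1 panel per gene), by group on the horizontal axis, with marker shape for replicate and lines for the mean and SD of 3 libraries. Etnppl, Fam107a and Mal were higher in all 9 needled libraries than in any un-needled one, whereas Fkbp5 and Zbtb16 were higher in 8 of 9.

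Nr3c1 (ENSMUSG00000024431, chromosome 18) encodes the receptor itself. It was expressed at 93.5, 89.6 and 94.3 CPM in WT, 93.0, 84.1 and 87.1 in ONC, 79.2, 81.9 and 84.0 in ONC-F, 82.8, 84.0 and 93.3 in ONC-J, and 95.5, 100.4 and 93.0 in ONC-S. Its levels kept within a narrow band, with ONC-F lowest and ONC-S highest. The difference between ONC-F and ONC-S did not overlap and passed the edgeR test (log2 fold change -0.24, SE 0.06, adjusted p = 0.0083). This call was lost without ONC-S replicate 2 (adjusted p = 0.0599, edgeR). After crush alone Nr3c1 stood at -0.07 (SE 0.06) on the log2 scale relative to WT, which did not pass (edgeR adjusted p = 0.746).

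Fkbp5 (ENSMUSG00000024222, chr17:28399094-28517527 on mm10, minus strand) encodes FKBP51, a co-chaperone that lowers the receptor's affinity for hormone and is itself induced by it, closing a feedback loop. It gave 24.7, 22.1 and 21.7 CPM in WT and 23.7, 23.4 and 20.6 CPM in ONC. Levels were 53.3, 44.0 and 27.0 CPM in ONC-F, 41.7, 61.0 and 23.8 in ONC-J, and 72.2, 56.4 and 53.1 in ONC-S. The un-needled libraries thus sat together and all ONC-S libraries lay far above them. ONC-F replicate 3 stood just above the un-needled range and ONC-J replicate 3 inside it. Relative to ONC the log2 fold changes were 0.87 (SE 0.25) in ONC-F, 0.91 (SE 0.25) in ONC-J and 1.42 (SE 0.24) in ONC-S, given without a test because the choice of members used this contrast. Crush alone left no detectable difference, at -0.02 (SE 0.25, edgeR adjusted p = 0.994). The lower levels in ONC-F (-0.56, SE 0.23) and ONC-J (-0.52, SE 0.23) than in ONC-S did not pass (edgeR adjusted p = 0.122 and 0.156). They passed for ONC-F without ONC-J replicate 3 (adjusted p = 0.0402, edgeR) or in a fit of the 6 libraries compared (adjusted p = 0.046, edgeR) and without ONC-J replicate 2 for ONC-J (adjusted p = 0.0169, edgeR). Fkbp5 overlaps 4 short annotated genes, some on the other strand, and the strand setting of the counting is not stated.

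Zbtb16 (ENSMUSG00000066687, chr9:48654297-48836222, minus strand), the transcriptional repressor PLZF, followed Fkbp5 library by library at a lower level. WT libraries held 4.53, 4.50 and 4.53 CPM and ONC libraries 3.80, 3.74 and 4.01. Needled libraries held 13.4, 6.18 and 4.81 CPM in ONC-F, 9.43, 9.73 and 4.47 in ONC-J, and 20.2, 11.1 and 9.96 in ONC-S. Again ONC-J replicate 3 fell inside the un-needled range and ONC-F replicate 3 just above it. The log2 fold changes against ONC were 1.04 (SE 0.35), 1.04 (SE 0.35) and 1.84 (SE 0.33) in the order ONC-F, ONC-J and ONC-S. ONC-F and ONC-J each stood 0.80 below ONC-S on the log2 scale (SE 0.31), without passing (edgeR adjusted p = 0.0948 and 0.0942). Without ONC-F replicate 1 both passed (adjusted p = 0.00599 and 0.0413, edgeR). ONC lay below WT without overlap but by only -0.23 (SE 0.36, edgeR adjusted p = 0.897), where 17.6% of all tested genes did not overlap between these groups.

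Ranked by Pearson correlation of log2 CPM with Fkbp5 over the 15 libraries, Zbtb16 had rank 6 among 16265 genes (r = 0.95). The 5 genes ahead of it were Dpysl3 (r = 0.98), Tax1bp1 (0.96), B4galt6 (0.95), Rhot1 (0.95) and Bicdl1 (0.95). The other members tested ranked lower, with Fam107a at 201 (r = 0.81), Etnppl at 234 (0.80) and Mal at 516 (0.74). Sgk1 (rank 3709, r = 0.38), Tsc22d3 (8075, -0.02), Nr3c1 (8441, -0.05) and Ddit4 (12014, -0.35) did not follow Fkbp5 closely. These correlations describe libraries that share depth and group, and carry no test.

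**Figure D2:**
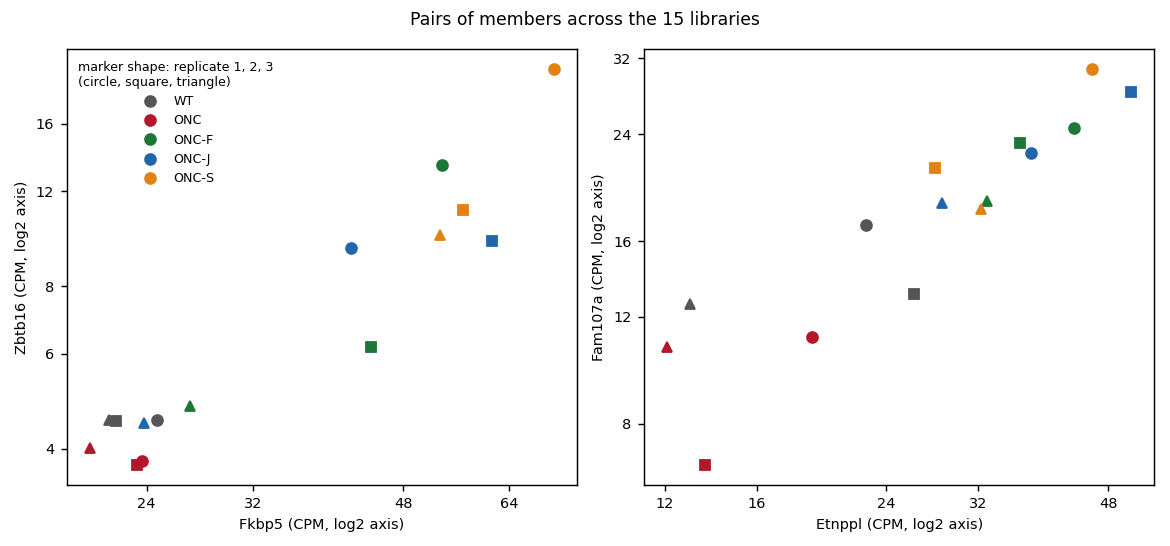
CPM of Zbtb16 against Fkbp5 (left) and of Fam107a against Etnppl (right) on log2 axes, 1 point per library, coloured by group with shape for replicate. On the left replicate 3 of ONC-F and of ONC-J lies beside the un-needled ones (4.81 and 4.47 CPM of Zbtb16). On the right all needled libraries lie above the un-needled ones on both axes, a difference for which both genes were taken in.

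Etnppl (ENSMUSG00000019232, chr3:130617448-130637521, plus strand) encodes ethanolamine-phosphate phospho-lyase, an enzyme of phospholipid breakdown that marks astrocytes in brain. Its levels were 22.5, 26.2 and 13.0 CPM in WT, 19.0, 13.6 and 12.1 in ONC, 43.2, 36.4 and 32.9 in ONC-F, 37.7, 51.6 and 28.6 in ONC-J, and 45.6, 27.9 and 32.3 in ONC-S. Every needled library, including replicate 3 of ONC-F and of ONC-J, was above every un-needled library. The log2 fold changes against ONC were close to each other, at 1.32, 1.39 and 1.24 (SE 0.24 each) for ONC-F, ONC-J and ONC-S. Among the needled groups the differences were within the error, at 0.08 for ONC-F against ONC-S (SE 0.22, edgeR adjusted p = 0.861) and 0.16 for ONC-J against ONC-S (SE 0.22, edgeR adjusted p = 0.70). ONC was -0.47 (SE 0.25) relative to WT, with overlapping libraries (edgeR adjusted p = 0.525).

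Fam107a (ENSMUSG00000021750, chr14:8296274-8318023, minus strand) encodes an actin-associated protein known as a stress- and glucocorticoid-induced gene in mouse brain. It measured 17.0, 13.1 and 12.6 CPM in WT, 11.1, 6.85 and 10.7 in ONC, 24.6, 23.2 and 18.6 in ONC-F, 22.3, 28.2 and 18.5 in ONC-J, and 30.7, 21.1 and 18.1 in ONC-S. The needled and un-needled libraries did not overlap, although the lowest needled library (18.1) was close to WT replicate 1 (17.0). Against ONC the log2 fold changes were 1.21 (SE 0.21), 1.27 (SE 0.20) and 1.29 (SE 0.20), but against WT only 0.64 (SE 0.20), 0.70 (SE 0.20) and 0.72 (SE 0.19), for ONC-F, ONC-J and ONC-S. ONC itself lay below WT by -0.57 (SE 0.21) with no overlap, which did not pass after adjustment (edgeR adjusted p = 0.248). Fam107a had rank 5 in likeness to Etnppl over the 15 libraries (r = 0.91), behind Ebpl (r = 0.94), E230001N04Rik (0.93), Selenbp1 (0.92) and Ip6k2 (0.91). The other members ranked had places from 28 (Mal, r = 0.82) to 13276 (Ddit4, r = -0.33). Etnppl and Fam107a were both taken in for being higher in the needled groups, so a likeness between them was partly built in.

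Mal (ENSMUSG00000027375, chr2:127633226-127656695, minus strand), a membrane proteolipid of myelin and of apical transport, was another member with full separation. WT libraries had 3.34, 2.41 and 1.95 CPM, ONC 3.50, 3.00 and 2.52, ONC-F 5.54, 5.34 and 4.91, ONC-J 6.67, 7.32 and 5.17, and ONC-S 4.21, 5.82 and 5.48. All needled libraries were higher, with ONC-J highest on average. The log2 fold changes against ONC were 0.80, 1.08 and 0.77 (SE 0.20 each) for ONC-F, ONC-J and ONC-S. The difference between ONC-J and ONC-S (0.31, SE 0.18) did not pass (edgeR adjusted p = 0.29), nor did that between ONC and WT (0.23, SE 0.21, edgeR adjusted p = 0.791). Mal is abundant in oligodendrocytes, so the myelin list is set beside it. Its 10 markers summed to 65.3 to 80.0 CPM over the 3 needled groups and 67.5 to 76.6 over the 2 un-needled ones, with Mobp and Opalin under 0.5 CPM in every library.

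Etnppl is also a glial gene, and the 10 Müller glia and astrocyte markers summed to 2251 to 2487 CPM in the needled libraries and 2188 to 2430.2 in the un-needled ones. In bulk retina, fewer cells of a type and less RNA per cell cannot be told apart. Over all tested genes, 92 of 19259 (0.478%) were higher in all 9 needled libraries than in all 6 un-needled ones. Etnppl, Fam107a and Mal were among them. Etnppl and Fam107a were taken in for this difference, and Mal was chosen with earlier results of these data known.

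**Figure D3:**
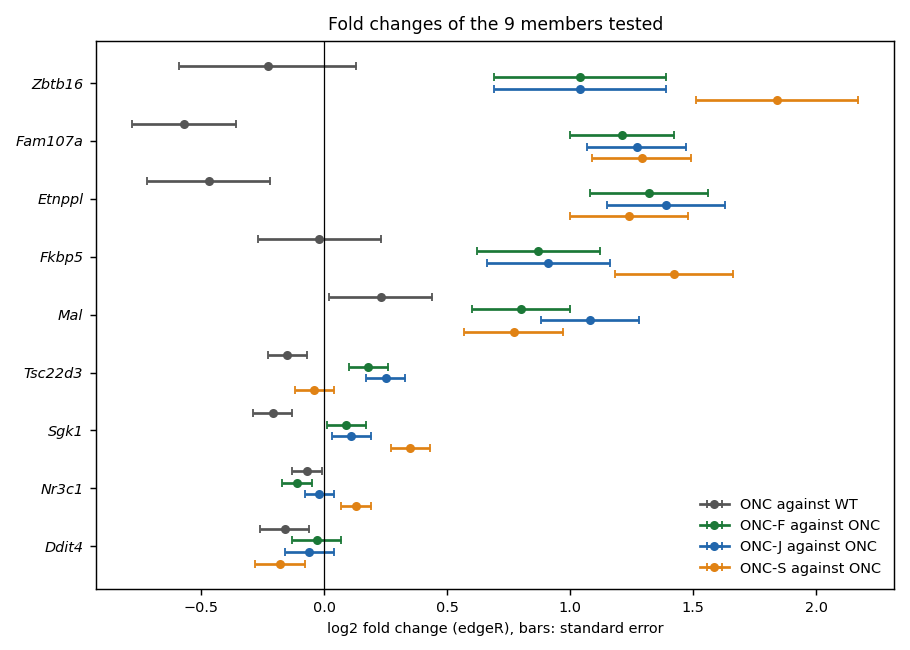
Fitted log2 fold changes of the 9 members tested (horizontal axis, bars are standard errors) for ONC against WT and for each needled group against ONC. Zbtb16, Fam107a, Etnppl, Fkbp5 and Mal lie between 0.77 and 1.84 in the needled groups, and the other 4 between -0.18 and 0.35.

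The remaining members, several of them textbook glucocorticoid targets, had small differences. Sgk1 (ENSMUSG00000019970, chr10:21882184-21999903, plus strand), a kinase of ion transport and cell survival and the carrier of the palindrome shown above, had 345, 304 and 337 CPM in WT, 322, 244 and 287 in ONC, 312, 294 and 299 in ONC-F, 327, 283 and 314 in ONC-J, and 364, 385 and 343 in ONC-S. Its ONC-S libraries stood above those of ONC (log2 fold change 0.35, SE 0.08), while ONC-F (0.09, SE 0.08) and ONC-J (0.11, SE 0.08) overlapped ONC. It was lower in ONC-F than in ONC-S by a test that the choice of members did not use (-0.27, SE 0.08, edgeR adjusted p = 0.0285). The same difference for ONC-J was -0.24 (SE 0.08), just outside the threshold with edgeR (adjusted p = 0.0538) and inside it with DESeq2 (adjusted p = 0.0255) or, with edgeR, without ONC replicate 1, ONC replicate 2 or ONC-J replicate 1 (adjusted p = 0.0292, 0.0189 and 0.0479). The ONC-F call was lost under limma on log2(FPKM + 1) (adjusted p = 0.0653) and without ONC-F replicate 2, ONC-F replicate 3, ONC-S replicate 1 or ONC-S replicate 2 (adjusted p = 0.0964, 0.08, 0.0716 and 0.149).

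Tsc22d3 (ENSMUSG00000031431, chrX:140539528-140600659, minus strand) encodes GILZ, a leucine zipper protein through which glucocorticoids restrain inflammation. It ran against Sgk1 among the needled groups, with 32.9, 32.0 and 34.6 CPM in ONC-F, 35.1, 35.1 and 34.3 in ONC-J, and 31.2, 29.1 and 25.7 in ONC-S. The un-needled levels were 34.5, 32.5 and 30.7 CPM in WT and 30.1, 31.4 and 26.6 in ONC. ONC-J was thus above ONC-S with no overlap (0.28, SE 0.08, edgeR adjusted p = 0.0206), and ONC-F was so without passing (0.21, SE 0.08, edgeR adjusted p = 0.0731), although it passed without ONC-S replicate 1 (edgeR adjusted p = 0.0294). The ONC-J call was lost without ONC-J replicate 1, ONC-J replicate 2 or ONC-S replicate 3 (edgeR adjusted p = 0.0505, 0.0527 and 0.109). Relative to ONC the log2 fold changes were 0.18, 0.25 and -0.04 (SE 0.08 each) in ONC-F, ONC-J and ONC-S, and relative to WT 0.03, 0.10 and -0.18 (SE 0.08 each).

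Ddit4 (ENSMUSG00000020108, chr10:59949669-59951834, minus strand), the stress-induced mTORC1 inhibitor REDD1, did not have a higher mean in any needled group than in ONC. It had 170.3, 172 and 177 CPM in WT, 167, 141 and 157 in ONC, 160.3, 172 and 123 in ONC-F, 172, 137 and 136 in ONC-J, and 128, 146 and 136 in ONC-S. The log2 fold changes against ONC were -0.03, -0.06 and -0.18 (SE 0.10 each), and no needled library exceeded the highest WT library. ONC lay below WT without overlap, by -0.16 (SE 0.10, edgeR adjusted p = 0.634). Pdk4 (ENSMUSG00000019577, chr6:5483351-5496309, minus strand), a mitochondrial kinase that limits glucose oxidation, was near the detection limit, with 2 to 12 counts per library (0.105 to 0.679 CPM), and no difference could be seen at this depth.

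The choice of members did not use the contrast of ONC with WT, although it drew on the levels of both groups. In that contrast 0 of the 9 members passed with edgeR, DESeq2 or limma, against 2.11% of all tested genes with edgeR. At an unadjusted p under 0.05, 2 of the 9 were lower in ONC, Sgk1 and Fam107a, where 11% of all genes differed in either direction. Between needled groups, 2 of 9 passed in ONC-F against ONC-S (Sgk1 and Nr3c1, both lower in ONC-F), where 14.6% of all genes did, and 1 of 9 in ONC-J against ONC-S (Tsc22d3), where 12.9% did. Without regard to the test, 29.9% and 29.5% of all genes did not overlap between these groups. With 9 members these shares lie near the background and are no result about the members. ONC-F against ONC-J gave 0 of 9, with 0% of all genes called, 0 members at an unadjusted p under 0.05 (3.35% of all genes) and 0 with DESeq2. In the contrasts with ONC that the choice had used, the median log2 fold change of the members was 0.80, 0.91 and 0.77 in ONC-F, ONC-J and ONC-S, beside -0.00, -0.00 and -0.01 over all tested genes.

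A wider list of 30 other glucocorticoid targets, none of them a member, had 26 genes tested (all but Il1r2, Tat, Gjb6 and Pck1). It was drawn up with earlier results of these data known, like the members, so its counts and the shares of all genes beside them are a description and not independent evidence. In ONC-S against ONC, 7 of the 26 (26.9%) rose and none fell, with 7.6% of all genes called higher. The 7 were Klf15, Mt1, Plin4, Cables1, Hif3a, Mertk and Mt2. DESeq2 called 6, all but Mt2, and limma on log2(FPKM + 1) called 3 (Klf15, Mt1 and Cables1). Mt2 was near the detection limit, at 0.0527 to 1.30 CPM. In ONC-F and ONC-J against ONC, edgeR called 0 of 26. At an unadjusted p under 0.05, 10 were higher and 0 lower in ONC-F, where 4.02% of all genes were higher, and 15 higher and 1 lower in ONC-J, where 4.34% were higher. DESeq2 called 0 in ONC-F and 5 in ONC-J (Klf15, Nfkbia, Plin4, Map3k6 and Cables1), all higher. The median log2 fold change against ONC was 0.25 for ONC-F, 0.45 for ONC-J and 0.22 for ONC-S, with 21, 24 and 18 of the 26 above 0. Libraries did not overlap, with the needled group higher, for 10 genes in ONC-F (background 6.8%), 13 in ONC-J (6.76%) and 10 in ONC-S (16.5%).

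Single libraries weighed on these counts. The 7 calls in ONC-S became 4 without ONC replicate 2, and 3 without ONC replicate 3 or without ONC-S replicate 1. The 0 calls in ONC-J became 4 without ONC-J replicate 3, the library with low Fkbp5 and Zbtb16, and 1 without ONC-J replicate 1.

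**Figure D4:**
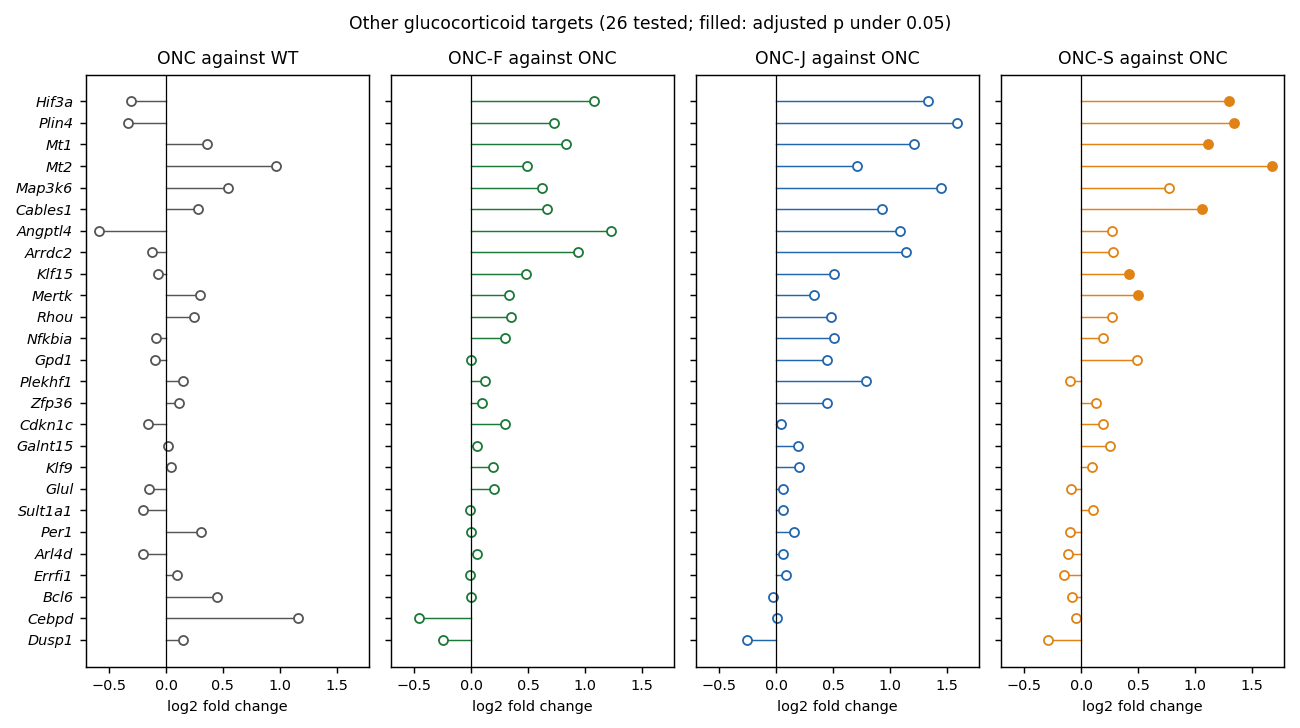
Log2 fold changes of the 26 other glucocorticoid targets tested (horizontal axis) in ONC against WT and each needled group against ONC, 1 row per gene ordered by the mean over the needled groups, filled where the edgeR adjusted p was under 0.05. Filled points occur in ONC-S alone (7 genes), while 21 and 24 of the 26 points lie above 0 in ONC-F and ONC-J.

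Klf15, a transcription factor of amino acid and lipid metabolism, measured 10.8, 9.58 and 8.49 CPM in WT, 9.21, 10.2 and 8.14 in ONC, 12.8 ± 0.688 in ONC-F (mean ± SD, n = 3), 13.8, 12.3 and 13.1 in ONC-J, and 12.3, 12.1 and 12.4 in ONC-S. All needled libraries exceeded all un-needled ones, and the rise in ONC-S against ONC passed (0.42, SE 0.11, edgeR adjusted p = 0.0132). The corresponding values were 0.48 (SE 0.11, edgeR adjusted p = 0.254) in ONC-F and 0.51 (SE 0.11, edgeR adjusted p = 0.0914) in ONC-J.

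Mt1, a metallothionein that binds zinc and copper, had 46.5, 45.4 and 36.3 CPM in WT, 52.6, 68.1 and 44.1 in ONC, 97.6, 109 and 86.1 in ONC-F, 87.7, 211 and 81.2 in ONC-J, and 92.2, 126 and 138 in ONC-S. Again no needled library reached down to the un-needled ones, and ONC-J replicate 2 was the highest. Against ONC the log2 fold change was 1.11 in ONC-S (SE 0.26, edgeR adjusted p = 0.00722), 0.83 in ONC-F (SE 0.26, edgeR adjusted p = 0.395) and 1.21 in ONC-J (SE 0.26, edgeR adjusted p = 0.0914). Cables1, a binding partner of cyclin-dependent kinases, rose by 1.06 in ONC-S (SE 0.23, edgeR adjusted p = 0.00444), from 3.91 to 5.10 CPM in ONC to 7.93 to 12.2 CPM. Together with Rhou, a small GTPase singled out after its values were seen, these are the 4 of 26 genes in which all 9 needled libraries exceeded all 6 un-needled ones, beside 0.478% of all tested genes.

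Plin4, a coat protein of lipid droplets, rose in ONC-S against ONC by 1.34 (SE 0.34, edgeR adjusted p = 0.0129). Its libraries followed Fkbp5 in having a low value in ONC-F replicate 3, with 5.33, 4.68 and 2.72 CPM in ONC-F, 5.71, 12.8 and 4.09 in ONC-J, and 8.17, 5.18 and 5.74 in ONC-S, compared with 2.35 to 2.72 in ONC and 2.49 to 3.97 in WT. Plin4 overlaps Hdgfl2 on the opposite strand. Arrdc2 and Nfkbia, named here after their values were seen, were high in the 2 needled libraries that were lowest for Fkbp5. Arrdc2, an arrestin domain gene, measured 42.9, 18.0 and 42.7 CPM in ONC-F, 38.8, 35.1 and 44.3 in ONC-J, and 32.0, 15.7 and 17.1 in ONC-S, next to 13.3 to 29.1 in the un-needled libraries. Nfkbia, the inhibitor of NF-kB, was highest in these libraries, at 28.6 CPM in ONC-F replicate 3 and 31.5 in ONC-J replicate 3, with 16.4 to 22.5 in the un-needled ones. The targets therefore did not share 1 order of libraries.

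Against WT, a comparison of this list added after the data were seen and free of the ONC libraries, 3 of the 26 genes rose in ONC-F (Mt1, Cables1 and Rhou, background 1.03%), 8 in ONC-J (1.86%) and 11 in ONC-S (11.6%). The 1 gene that fell in ONC-S was Arl4d, where 11.7% of all genes fell. The 8 in ONC-J were Per1, Klf15, Plin4, Map3k6, Mt1, Mertk, Cables1 and Rhou. The needled groups also had the crush that WT lacked, so these counts hold injury as well as needling. These comparisons share the same 3 WT libraries, and without WT replicate 2 or WT replicate 3 the counts were 0 in ONC-F and 4 in ONC-J. Calls in ONC-F also moved to 1 without ONC-F replicate 1 and to 5 without ONC replicate 2, and the 12 in ONC-S of either direction to 7 without WT replicate 3. In ONC against WT, edgeR called 0 of 26, with 4 at an unadjusted p under 0.05 (11% of all genes), and DESeq2 called 1, Bcl6 (log2 fold change with edgeR 0.45, SE 0.13).

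The other genes of the pathway were followed as lists. Of 12 genes that handle the receptor or its ligand, all tested, 4 rose in ONC-S against ONC (background 7.6%) and 0 passed in ONC-F against ONC, ONC-J against ONC or ONC against WT with edgeR, DESeq2 or limma. These 4 were the coactivators Ncoa1 (0.47, SE 0.06, edgeR adjusted p = 3.78e-05) and Ncoa2 (0.35, SE 0.05, edgeR adjusted p = 0.000218), the corepressor Ncor1 (0.22, SE 0.05, edgeR adjusted p = 0.00913) and the chaperone Hsp90aa1 (0.19, SE 0.05, edgeR adjusted p = 0.0288). At an unadjusted p under 0.05 the list had 0 genes for ONC-F, 1 for ONC-J and, in ONC against WT, 1, with 8.15%, 8.33% and 11% of all genes. The mineralocorticoid receptor Nr3c2, which also binds corticosterone, differed from ONC by -0.12, -0.05 and -0.06 in ONC-F, ONC-J and ONC-S (SE 0.08 each). Fkbp4, the co-chaperone that opposes FKBP51, differed by 0.06, -0.01 and 0.01 (SE 0.05 each).

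Of 11 inflammatory genes that glucocorticoids are known to lower, 5 were expressed enough to test, and 0 passed in any comparison with ONC or WT by edgeR, DESeq2 or limma, while Il6, Tnf and Ccl4 stayed under 0.5 CPM in every library. Of the 5 tested, Nos2 and Ptgs2 stayed under 1 CPM in every library, and Icam1 and Cxcl10 reached at most 2.26 and 2.01 CPM. Vcam1 lay at 10.3 to 15.8 CPM. The lack of calls therefore says little about the other 4. At an unadjusted p under 0.05 the list had 2 genes for ONC-F, 1 for ONC-J and 1 for ONC-S against ONC, all lower, with 4.13%, 4% and 14.3% of all genes lower. Paralogs of the members, 12 tested of 14, had median log2 fold changes against ONC of -0.06, 0.02 and 0.04 in ONC-F, ONC-J and ONC-S, and 1 was called, Pdk1, which fell by 0.82 in ONC-S (background of lower genes 6.89%). Genes of fasting and of FOXO or PPAR control, all 12 tested, had 0, 1 and 4 called higher in ONC-F, ONC-J and ONC-S against ONC, where the backgrounds were 0.00519%, 0.104% and 7.6%. At an unadjusted p under 0.05 that list had 1 gene in ONC-F (8.15% of all genes), and DESeq2 called Sesn1 there. The 1 in ONC-J was also Sesn1, a stress-induced sestrin, whose 9 needled libraries (89.0 to 110.3 CPM) all exceeded the un-needled ones (74.0 to 85.1 CPM).

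Cell type markers were set beside these differences. In ONC-S, the group with the highest mean Fkbp5 and Zbtb16, the 6 mural cell markers summed to 50.7 to 74.2 CPM, against 72.7 to 84.5 in the other groups, and the 5 cone markers to 916 to 971 CPM, against 1065 to 1409.7. The 4 red blood cell markers summed to 19.2 to 24.8 CPM in ONC-S and 7.73 to 14.0 in the other injured groups. In WT they summed to 10.1 to 58.5 CPM, which overlapped ONC-S. The 6 pigment epithelium markers summed to 49.1 to 68.7 CPM in ONC-S and 77.9 to 131 in ONC-F and ONC-J. They summed to 49.0 to 102 CPM in WT and ONC, which overlapped ONC-S. Reactive gliosis genes did not separate needled from un-needled injured retina, at 261 to 588 summed CPM in the needled groups and 271 to 853 in ONC. The part of these shifts in the glucocorticoid-responsive levels was not tested.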

How the data were processed

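RNA was measured in 15 mouse retinal libraries, 3 in each of 5 groups set by the GEO labels. Paired-end reads were aligned to mm10 with HISAT2 2.0.5 and whole fragments were counted per gene with featureCounts, so the deposited counts were not normalized. FPKM was derived from them by the authors with gene length. The strand setting is not given in the sources used here.

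Counts were fitted with the quasi-likelihood test of edgeR 4.0.16 over all 15 libraries, with TMM library sizes and filterByExpr (minimum count 10, minimum total 15), which left 19259 genes holding 99.84% to 99.89% of counts. Library totals ran from 14482435 to 26112762, which sets the precision of low genes such as Pdk4. P-values were adjusted by the Benjamini-Hochberg method over all tested genes and called under 0.05. CPM used TMM library sizes. The fit was tested on simulated data for ONC-F against ONC. It called 62 of 100 genes changed by 0.5 and 81 of 100 changed by 1 on the log2 scale. There were 5 false calls over 19000 genes. With the measured counts 1 gene was called in this contrast. How often changes of these sizes were missed there was not tested.

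The members and lists were chosen with earlier results of these data known, so contrasts of needled groups with un-needled ones are given for members without a test. Genes described from other lists are up to 4 per list with the smallest p. Nr3c2 and Fkbp4 were described outside this rule, and genes that passed a test are named beside the counts. Others are said to be chosen after their values were seen. Likeness is Pearson's r of log2 CPM over the 15 libraries among genes with a mean of at least 1 CPM. Coordinates are from GENCODE on GRCm38 (mm10), and start-site windows from RefSeq, with those of chromosome 18 left out.

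Alternatives were RLE size factors, dropping the filter on low counts, requiring 1 CPM in 3 libraries, the replicate number as a block, edgeR on the 6 libraries compared, DESeq2 1.42.0, limma 3.58.1 on log2(FPKM + 1) and log2(FPKM + 0.1), and leaving out each library. R 4.3.3, Python 3.11.15, numpy 2.4.6, pandas 2.3.3 and matplotlib 3.10.9 were used.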

Additional observations from a re-analysis of the deposited data

Results flagged for a closer look

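By the edgeR test of the difference itself, 2 of 9 members passed in ONC-F against ONC-S and 1 of 9 in ONC-J against ONC-S, near the shares of all tested genes (14.6% and 12.9%) and so no result about the members as a set. Tsc22d3 was higher in ONC-J than in ONC-S by 0.28 on the log2 scale (SE 0.08, adjusted p = 0.0206). Sgk1 was lower in ONC-F than in ONC-S, at -0.27 (SE 0.08, adjusted p = 0.0285), and so was Nr3c1, at -0.24 (SE 0.06, adjusted p = 0.0083). Sgk1 and Nr3c1 were highest in ONC-S, the group in which Fkbp5 and Zbtb16 were highest too, whereas Tsc22d3 was lowest there. With 1 library left out, the call of Tsc22d3 was lost for 3 libraries (edgeR adjusted p = 0.0505 to 0.109), that of Sgk1 for 4 (edgeR adjusted p = 0.0716 to 0.149) and that of Nr3c1 for 1 (edgeR adjusted p = 0.0599), and that of Sgk1 was also lost under limma on log2(FPKM + 1) (adjusted p = 0.0653).

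Among the other glucocorticoid targets, the same test set ONC-J above ONC-S for Errfi1, an inhibitor of the EGF receptor (0.24, SE 0.07, adjusted p = 0.0382), and for Plekhf1, a phosphoinositide-binding protein of endosomes (0.90, SE 0.29, adjusted p = 0.0466). Both calls were lost under limma on log2(FPKM + 1) (adjusted p = 0.0507 and 0.114) and that of Plekhf1 also with DESeq2 (adjusted p = 0.057). With edgeR and 1 library left out, the call of Errfi1 was lost for 5 of the 15 libraries (adjusted p = 0.0507 to 0.151) and that of Plekhf1 for 11 of the 15 (adjusted p = 0.0502 to 0.18).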

How the results depend on the processing

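Signs of log2 fold changes were checked for the members, the genes named by smallest p and the other targets. The check covered ONC against WT, comparisons between needled groups and, except for members, each needled group against ONC. None of these changed sign under an alternative where it passed the test in either fit. Nr3c2, Fkbp4 and the genes outside the lists that were ranked by likeness were not checked. Differences within their error did change sign with a library left out, such as Fkbp5 in ONC against WT (-0.05 to 0.04) and Etnppl in ONC-F and ONC-J against ONC-S (-0.05 to 0.31 and -0.09 to 0.39). Without the low-count filter, the members called were 3 in ONC against WT, 4 in ONC-F against ONC-S and 4 in ONC-J against ONC-S (0, 2 and 1 as reported), and the other targets called were 5 in ONC against WT, 10 and 9 in ONC-F and ONC-J against ONC, and 12 and 16 in ONC-F and ONC-J against WT. The cause was not tested. Shares of all genes called under the alternatives are not set beside the counts in this section. These counts are therefore no result about the members or the other targets. DESeq2 gave 2 members in ONC-J against ONC-S, and 1 other target in ONC against WT, 5 in ONC-J against ONC and 6 in ONC-F against WT. On the 6 libraries compared, edgeR gave 2 members in ONC-J against ONC-S, 1 other target in ONC-J against ONC, and 7 and 13 in ONC-F and ONC-J against WT. Limma on log2(FPKM + 1) and log2(FPKM + 0.1) both gave 1 member in ONC-F against ONC-S, 3 and 4 other targets in ONC-S against ONC, 0 and 0 in ONC-F against WT, and 5 and 5 in ONC-J against WT. With a pseudocount of 1, which shrinks low genes, the members' medians were 0.48, 0.50 and 0.46 in ONC-F, ONC-J and ONC-S against ONC. RLE size factors and the filter of 1 CPM in 3 libraries left these counts and medians within the same bounds.

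The methods give 3 repeats of the experiment but do not tie the replicate numbers to them, so the numbers were taken only as names. Libraries with the same number in different groups had correlated deviations of -0.0909 to 0.182 (median 0.0266, 30 pairs), and 8 of the 15 libraries correlated best with their own number. With the replicate number as a block, 5 members were called in ONC-F against ONC-S, with Fkbp5, Zbtb16 and Tsc22d3 added (adjusted p = 0.0274, 0.0239 and 0.0454, edgeR). In ONC-J against ONC-S 4 members were called, with Fkbp5, Zbtb16 and Sgk1 added (adjusted p = 0.0367, 0.0299 and 0.0199, edgeR). Other targets called were 1 in ONC against WT, 1 and 5 in ONC-F and ONC-J against ONC, and 8 in ONC-F against WT. The share of all genes called with the block is not given here, so these counts are no result about either list.

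With each library left out in turn, the members called ranged from 0 to 1 in ONC against WT, 0 to 3 in ONC-F against ONC-S, 0 to 2 in ONC-J against ONC-S and 0 to 0 in ONC-F against ONC-J. The member in ONC against WT, Sgk1, was called without ONC replicate 1. Calls were 0 in ONC-F against ONC-S without ONC-S replicate 2 and 0 in ONC-J against ONC-S without ONC-S replicate 3. Other targets ranged from 0 to 2 in ONC against WT, 0 to 0, 0 to 4 and 3 to 8 in ONC-F, ONC-J and ONC-S against ONC, and 0 to 5, 4 to 11 and 7 to 14 against WT. The members' medians against ONC ranged from 0.52 to 0.90 in ONC-F, 0.53 to 1.19 in ONC-J and 0.66 to 0.90 in ONC-S. The low ends in ONC-F and ONC-J came without ONC-F replicate 1 and without ONC-J replicate 2. Depth limits Pdk4, Mt2 and other genes with a few counts per library.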
